A study of Mus musculus with 12 samples.

Results

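Pim1, Pim2 and Pim3, the 3 mouse genes for the PIM serine/threonine kinases, were followed in B lymphoma cells that had kept or lost the B-cell receptor (BCR), with and without inhibition of the kinase GSK3. The genes were taken by their symbol in the platform annotation, 3 of 18820 genes with a value. A gene with several probe sets was to be represented by the one chosen by its mean level over the 12 arrays; each PIM gene had 1 probe set, so the measured levels decided nothing. The probe sets are 10443527 for Pim1 (Entrez gene 18712, chromosome 17), 10598467 for Pim2 (18715, chromosome X) and 10426110 for Pim3 (223775, chromosome 15). The family was proposed with earlier results of these arrays known.

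The samples were 12 arrays (Affymetrix Mouse Gene 1.1 ST) of primary lymphoma cultures from l-MYC;B1-8f mice on a C57BL/6J x BALB/c background. These mice carry a MYC transgene and a BCR heavy chain segment that the recombinase Cre can remove. Every culture had been transduced with TAT-Cre, so BCR-positive and BCR-negative cells of a lymphoma grew side by side, and both populations were sorted after 4 days. The untreated cultures had no inhibitor, and the treated ones held CHIR99021, a GSK3 inhibitor whose dose the labels do not state. Each of lymphomas 2564, 2646 and 2676 gave 1 array to each of the 4 groups: untreated BCR-positive, untreated BCR-negative, CHIR99021-treated BCR-positive and CHIR99021-treated BCR-negative. The replicates are lymphomas with different identification numbers, and the BCR-positive reference cells were the neighbours of the BCR-negative ones in the dish, and no culture of a single population was measured. All groups share the MYC transgene and the TAT-Cre exposure.

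PIM kinases need no activating phosphorylation: their activity is set mainly by how much kinase is made, which JAK-STAT cytokine signalling and NF-κB raise through transcription, and by fast turnover of the message and protein. They phosphorylate many of the same proteins as AKT, among them regulators of cell death, of the cell cycle and of translation. Pim1 was found as a site of proviral insertion in mouse lymphoma, and PIM kinases cooperate strongly with MYC in mouse B-cell and T-cell tumours, where the members can stand in for each other in part.

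The sequences upstream of the genes are shown as background, and their part in the PIM differences was not tested. The sequences are the 250 bases before the annotated start in RefSeq (GRCm38.p6, plus strand), and for a second Pim1 start the 30 bases that hold motif matches, in capitals. The Pim1 start that comes first on the chromosome is called the main one here, for its order alone.

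Pim1, main start, chr17:29490535-29490784: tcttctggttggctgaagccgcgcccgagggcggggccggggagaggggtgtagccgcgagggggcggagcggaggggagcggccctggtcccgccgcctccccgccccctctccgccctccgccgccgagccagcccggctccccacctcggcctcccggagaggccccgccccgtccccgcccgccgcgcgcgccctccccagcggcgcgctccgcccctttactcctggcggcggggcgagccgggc
Pim1, second start, chr17:29493011-29493040: gtttGTAAACAggaatCACGTGgtctgaaa
Pim2, chrX:7878056-7878305: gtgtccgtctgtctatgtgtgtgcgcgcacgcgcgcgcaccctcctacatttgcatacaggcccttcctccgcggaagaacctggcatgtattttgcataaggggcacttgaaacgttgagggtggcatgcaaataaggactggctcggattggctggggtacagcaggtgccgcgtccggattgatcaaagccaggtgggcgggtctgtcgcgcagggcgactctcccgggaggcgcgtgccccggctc
Pim3, chr15:88861944-88862193: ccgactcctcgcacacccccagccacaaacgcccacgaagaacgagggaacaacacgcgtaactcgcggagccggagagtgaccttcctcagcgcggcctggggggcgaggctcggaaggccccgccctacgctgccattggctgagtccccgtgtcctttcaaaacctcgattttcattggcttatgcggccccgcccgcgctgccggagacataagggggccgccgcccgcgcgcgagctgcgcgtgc

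Windows of 300 bases, from 250 before to 50 after each start, were searched on both strands for 5 motifs. They were TTCNNNGAA (STAT), an NF-κB pattern of 10 letters, GTAAACA (FOXO), CACGTG (E-box) and TGANTCA (AP-1). The NF-κB pattern, given by name alone, differs from the full consensus and can miss sites that fit it. Of 32851 such mouse windows, 8.30%, 1.63%, 3.65%, 7.15% and 7.81% held each motif, in this order. The window of the second Pim1 start held a FOXO match beginning at position -70 from the start and an E-box match at -58. The windows of the main Pim1 start, of Pim2 and of Pim3 held none of the 5. The GC content of the whole window was 81.3% at the main Pim1 start, 49.0% at the second, 62.7% for Pim2 and 69% for Pim3, against a median of 52.7% over all windows. These matches are letters in a window and no measure of binding, and the arrays do not tell the Pim1 starts apart.

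Values are log2 expression per probe set, so 1 unit is a doubling. The array medians lay between 4.71 and 4.92, and r across probe sets was 0.988 to 0.997 within a lymphoma. Differences were taken within lymphomas and are log2 estimates ± SE from limma (n = 3 lymphomas), and a gene is called when its Benjamini-Hochberg adjusted p over all 18820 genes is under 0.05. BCR loss was compared within a culture, and CHIR99021 between separate cultures of a lymphoma. The SE of a gene comes from a spread shared by both kinds of comparison, which does not separate variation between cultures. The deletion was checked on Ighv1-72, the variable segment of the B1-8 heavy chain. It fell with BCR loss in untreated cultures (-2.11 ± 0.331; limma, adjusted p = 0.0176) and in CHIR99021 cultures (-2.95 ± 0.331; adjusted p = 0.0498), in all 3 lymphomas. The PIM levels, from 7.17 to 10.50, were all above 4.12, the 30th percentile of the gene means.

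Pim1 rose with BCR loss and fell with CHIR99021. In untreated BCR-positive cells of lymphomas 2564, 2646 and 2676 it stood at 8.09, 9.04 and 9.14. In their untreated BCR-negative neighbours it stood at 8.82, 10.50 and 10.20. Each BCR-negative array lay above its BCR-positive partner, although the groups overlapped because lymphoma 2564 was low throughout. The rise was 1.09 ± 0.160 (2.12-fold; limma, adjusted p = 0.0153), or 1.67-fold, 2.75-fold and 2.09-fold in the 3 lymphomas. The comparison called 359 genes higher, 1.91% of all, and 432 lower (2.30%), together 4.20%. Leaving out lymphoma 2646 or 2676 ended the call (adjusted p = 0.136 and 0.125), as did leaving out the untreated BCR-positive array of 2646 or 2676 (adjusted p = 0.0831 and 0.0799).

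With CHIR99021, Pim1 stood at 7.17, 7.84 and 8.07 in BCR-positive cells and at 7.47, 8.31 and 8.76 in BCR-negative cells of the 3 lymphomas, again in the order 2564, 2646, 2676. All 6 treated arrays lay below the untreated array of the same population and lymphoma. In BCR-negative cells the fall was -1.66 ± 0.160 (3.16-fold lower; limma, adjusted p = 0.00320), and Pim1 ranked 8 by p among all genes, of which 332 were called lower (1.76%), 360 higher (1.91%) and together 3.68%. The treated level was 39.2%, 21.9% and 37.0% of the untreated one in 2564, 2646 and 2676. The call ended without lymphoma 2646 (adjusted p = 0.0871) and when the 6 arrays of the comparison were fitted alone (adjusted p = 0.0511).

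In BCR-positive cells the difference was -1.06 ± 0.160 (2.09-fold), with -0.92, -1.20 and -1.07 in the 3 lymphomas. It missed the threshold (limma, adjusted p = 0.0539), in a comparison that called 0.0744% of genes (0.00531% higher and 0.0691% lower). Fitted on the 6 arrays of the comparison alone it was called (adjusted p = 0.00797), as it was when dim genes were left out (adjusted p = 0.0445) and with a trended, robust prior (adjusted p = 0.0311). It was also called without the untreated BCR-negative array of 2564 or 2646 (adjusted p = 0.0270 and 0.00814), which enter only through the shared variance. The 95% interval of the difference ran from -1.42 to -0.70.

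Between treated BCR-negative and treated BCR-positive cells, Pim1 differed by 0.49 ± 0.160 (1.40-fold; 95% interval 0.13 to 0.85), with 0.31, 0.47 and 0.69 in the 3 lymphomas. It did not pass (limma, adjusted p = 0.508), and 0.0159% of genes did (0.0106% higher and 0.00531% lower). The interaction, which is the BCR-loss difference with CHIR99021 minus that without, was -0.60 ± 0.227 for Pim1 (adjusted p = 0.928), negative in all 3 lymphomas at -0.43, -0.995 and -0.37. Without the untreated BCR-negative array of 2646 it was -0.36. No gene at all was called for the interaction (0 of 18820, 0%, with 990 at an unadjusted p under 0.05). Treated BCR-negative against untreated BCR-positive cells gave -0.57 ± 0.160 for Pim1 (67.2% of the level; adjusted p = 0.303, with 0.0159% of genes called), negative in all 3 lymphomas.

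The order of the Pim1 levels was the same in each lymphoma: untreated BCR-negative, untreated BCR-positive, treated BCR-negative, treated BCR-positive. Of the neighbours in that order the first pair differed beyond the threshold and the other pairs did not. Group means were 9.84 ± 0.894, 8.76 ± 0.580, 8.18 ± 0.655 and 7.69 ± 0.469 (SD, n = 3), where the SD includes the spread between tumours.

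**Figure D1:**
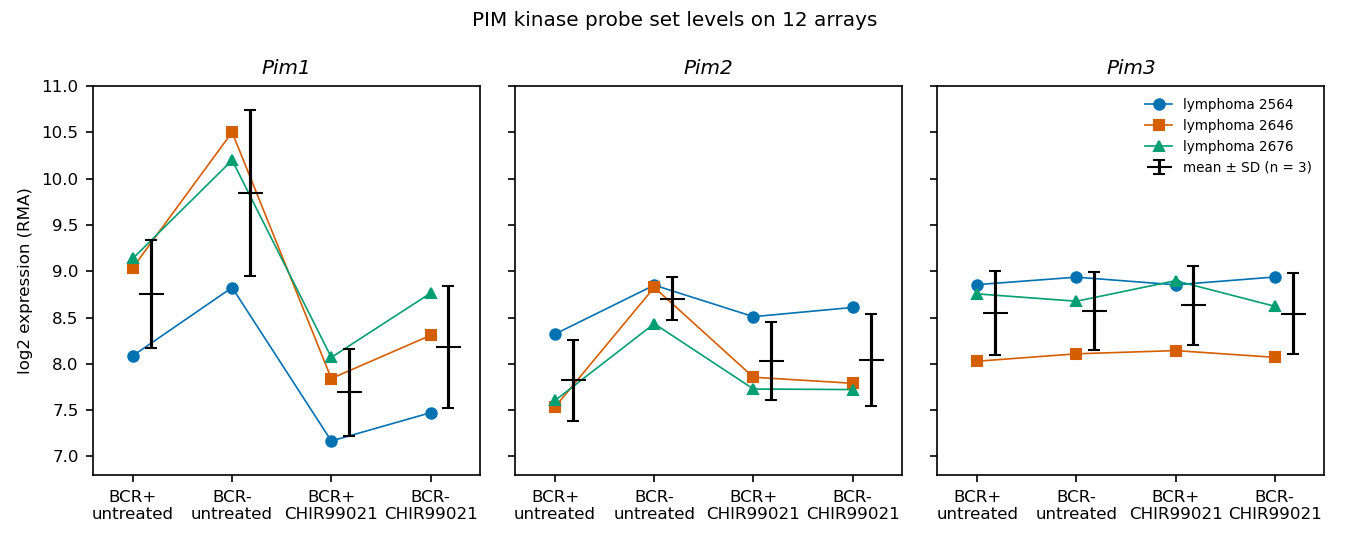
Log2 expression (vertical axis) of Pim1, Pim2 and Pim3 in the 4 groups (horizontal axis), 1 coloured line per lymphoma, with black bars for the group mean ± SD (n = 3). Pim1 peaks in untreated BCR-negative cells and is lowest in treated BCR-positive cells of every lymphoma, Pim2 stands out in untreated BCR-negative cells, and Pim3 keeps 3 nearly flat lines.

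Pim2 was highest in untreated BCR-negative cells of every lymphoma. Untreated BCR-negative cells of 2564, 2646 and 2676 had levels of 8.85, 8.83 and 8.43. Untreated BCR-positive cells had 8.32, 7.53 and 7.60, the lowest level of each lymphoma. The 2 groups did not overlap in these 6 arrays. How many of all genes share this was not counted, so it adds no support to the rise. The rise with BCR loss was 0.88 ± 0.130 (1.84-fold; limma, adjusted p = 0.0153), with 1.44-fold, 2.45-fold and 1.78-fold in the 3 lymphomas. The call ended without lymphoma 2646 or 2676 (adjusted p = 0.173 and 0.128) and without the untreated BCR-positive array of either (adjusted p = 0.0831 and 0.0671).

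In CHIR99021 cultures Pim2 stood at 8.51, 7.86 and 7.73 in BCR-positive cells and at 8.61, 7.79 and 7.72 in BCR-negative cells of 2564, 2646 and 2676. The populations were nearly level: the BCR-loss difference was 0.01 ± 0.130, with a 95% interval from -0.28 to 0.30 (limma, adjusted p = 0.991). The 0.88 measured without the inhibitor lies outside this interval but has an error of its own. The test of the change is the interaction. The interaction was -0.87 ± 0.183, with -0.43, -1.36 and -0.84 in the 3 lymphomas. By p it ranked 14 of 18820 (limma, unadjusted p = 0.000846), and it did not pass over all genes (limma, adjusted p = 0.928). With this many genes tested, such a rank can arise without any difference.

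Pim2 fell with CHIR99021 in BCR-negative cells (-0.66 ± 0.130, 1.58-fold; limma, adjusted p = 0.0286). The treated level was 84.6%, 48.8% and 61.1% of the untreated one in 2564, 2646 and 2676. The call ended without lymphoma 2646 or 2676 (adjusted p = 0.221 and 0.150). It also ended without the treated BCR-negative array of any lymphoma or the untreated BCR-negative array of 2646 or 2676, with adjusted p between 0.0572 and 0.122. In BCR-positive cells Pim2 was instead slightly higher with CHIR99021 in all 3 lymphomas (0.19, 0.32 and 0.12), a mean of 0.21 ± 0.130 that did not pass (adjusted p = 0.660) and that was 0.12 without the untreated BCR-positive array of 2646. Treated BCR-negative against untreated BCR-positive cells gave 0.22 ± 0.130 (adjusted p = 0.709), and 0.13 without that array or 0.12 without the treated BCR-negative array of 2564. Of the levels of Pim2, the untreated BCR-negative mean of 8.70 ± 0.233 (SD, n = 3) came first, and the other means, 8.04 ± 0.493, 8.03 ± 0.419 and 7.82 ± 0.436 in treated BCR-negative, treated BCR-positive and untreated BCR-positive cells, were not told apart.

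Pim3 differed between the lymphomas and passed in no comparison. On the 4 arrays of lymphoma 2564 it ranged from 8.85 to 8.94, in 2646 from 8.03 to 8.14 and in 2676 from 8.62 to 8.90, so that no array of 2646 reached the lowest of the other lymphomas. The BCR-loss difference was 0.03 ± 0.0694 in untreated cultures (95% interval -0.13 to 0.18; limma, adjusted p = 0.897) and -0.09 ± 0.0694 with CHIR99021 (-0.24 to 0.07; adjusted p = 0.745). CHIR99021 gave 0.09 ± 0.0694 in BCR-positive cells (-0.07 to 0.24; adjusted p = 0.765) and -0.03 ± 0.0694 in BCR-negative cells (-0.19 to 0.13; adjusted p = 0.894). The interaction was -0.12 ± 0.0982 and the last comparison -0.0033 ± 0.0694, with adjusted p of 0.976 and 0.997. The interval for BCR loss in untreated cultures leaves out the 1.09 of Pim1 and the 0.88 of Pim2, which have errors of their own. In 2564, 2646 and 2676 the Pim1 difference exceeded that of Pim3 by 0.66, 1.38 and 1.14. The Pim2 difference did so by 0.45, 1.21 and 0.91. An exact two-sided sign-flip test gave p = 0.25 for each, the smallest p that 3 lymphomas allow.

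**Figure D2:**
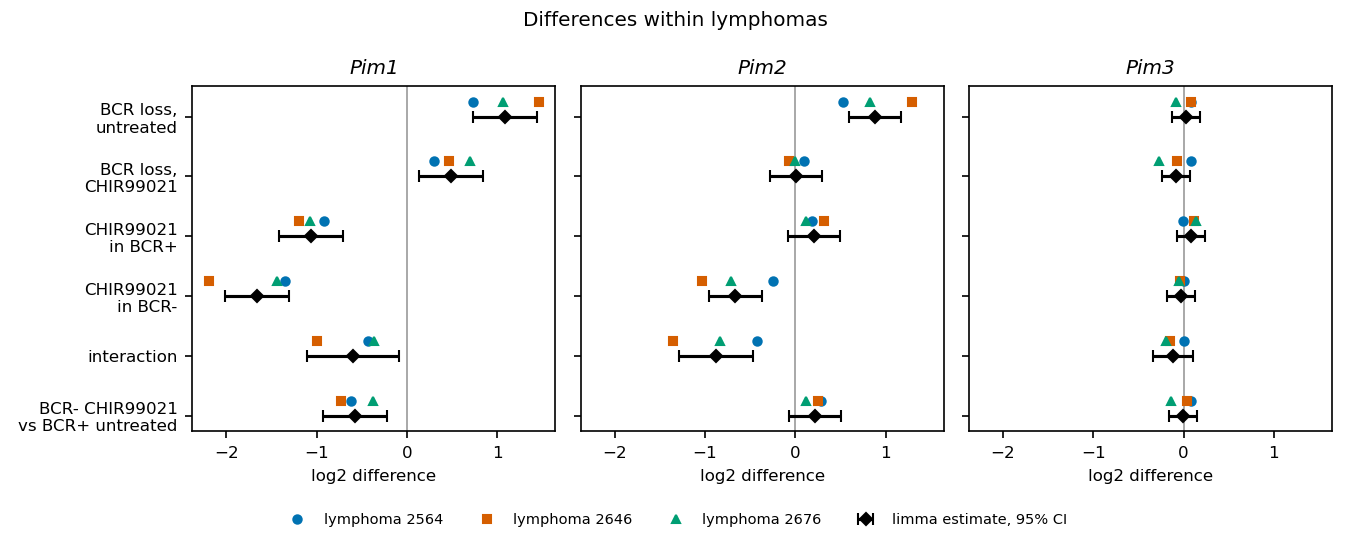
Log2 differences (horizontal axis) of Pim1, Pim2 and Pim3 in the 6 comparisons (vertical axis), with a coloured point for each lymphoma and a black diamond with the 95% interval for the limma estimate. Pim1 and Pim2 lie to the right of 0 for BCR loss in untreated cultures and to the left for CHIR99021 in BCR-negative cells. Both of these comparisons use the untreated BCR-negative arrays with opposite sign, which ties their signs. The Pim3 intervals all cover 0.

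The 3 genes also split their variation differently. The lymphoma made up 28.6% of the sum of squares of Pim1, 41.9% of that of Pim2 and 96.2% of that of Pim3. The group made up 68.3%, 49.9% and 0.987%. The medians over all genes were 36.8% for lymphoma and 21.3% for group. Lymphoma 2564 had the lowest mean of Pim1 (7.89, against 8.92 in 2646 and 9.04 in 2676) but the highest of Pim2 (8.57, against 8.00 and 7.87).

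The differences of Pim1 and Pim2 were set side by side within each lymphoma. For BCR loss without CHIR99021, the Pim1 difference exceeded the Pim2 difference by 0.21, 0.17 and 0.23 in 2564, 2646 and 2676. Under CHIR99021 it did so by 0.21, 0.53 and 0.70, so the gap was about the same in 2564 and wider in the other two; the change in the gap was not tested. For CHIR99021 in BCR-positive cells, the Pim1 difference minus that of Pim2 was -1.11, -1.52 and -1.19 (mean -1.27 ± 0.217, SD, n = 3). In BCR-negative cells Pim1 minus Pim2 was -1.11, -1.16 and -0.72. An exact two-sided sign-flip test gave p = 0.25 for each of these 4, which is the smallest p that 3 lymphomas allow.

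Genes of the signals that raise PIM transcription were read from 2 lists. Of 20 measured genes of JAK-STAT cytokine signalling, 2 rose with BCR loss in untreated cultures, none fell and 18 did not pass, with a list median of 0.12 against -0.0023 over all genes. Over all genes 1.91% were called higher and 2.30% lower in this comparison, and 1.91% and 1.76% for CHIR99021 in BCR-negative cells, the shares beside which the counts of each list stand. The 2 JAK-STAT genes that rose were Il6st and Il6ra. Il6st, the signalling chain shared by the IL-6 family of receptors, rose by 1.40 ± 0.124 (limma, adjusted p = 0.00169). Il6ra, which binds IL-6 itself, rose by 0.72 ± 0.140 (limma, adjusted p = 0.0292). With CHIR99021, Il6st fell in BCR-negative cells (-0.89 ± 0.124; adjusted p = 0.0105), the only call among the 20 there. That comparison and BCR loss in untreated cultures share the untreated BCR-negative arrays, which ties their signs. With each lymphoma or array left out in turn, the rise of Il6st lost its call in 2 of 15 cases, that of Il6ra in 5 and the fall of Il6st in 4. No member passed in the other simple comparisons, where the smallest p belonged to Il6st for BCR loss with CHIR99021 (0.62 ± 0.124; adjusted p = 0.385) and to the transcription factor gene Stat3 for CHIR99021 in BCR-positive cells (0.19 ± 0.0844; adjusted p = 0.504).

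Of 17 measured NF-κB subunits, inhibitors and target genes, 9 rose with BCR loss in untreated cultures and none fell (list median 0.34). The smallest p belonged to the genes Nfkbie (1.50 ± 0.106), Tnfaip3 (2.09 ± 0.180) and Nfkbiz (0.72 ± 0.106), with adjusted p from 0.000577 to 0.0153 in limma. In BCR-negative cells 6 of the 17 fell with CHIR99021 (median -0.31), led by Nfkbie (-1.25 ± 0.106), Tnfaip3 (-1.73 ± 0.180) and the subunit gene Relb (-0.60 ± 0.117). The calls on Nfkbie and Tnfaip3 were each lost in 1 of 15 leave-outs in both comparisons, against 4 for Nfkbiz and 7 for Relb. None passed for CHIR99021 in BCR-positive cells, where the median was 0.0017 and the adhesion gene Icam1 had the smallest p (0.49 ± 0.124; adjusted p = 0.193). None passed for BCR loss with CHIR99021 either (median 0.04; Nfkbie 0.57 ± 0.106; adjusted p = 0.385). The list was chosen with earlier results of these arrays known, so its direction is no independent evidence. BCR loss in untreated cultures and CHIR99021 in BCR-negative cells also use the same untreated BCR-negative arrays, which ties their signs.

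Of 15 genes that STAT factors are known to induce, 2 rose with BCR loss in untreated cultures and none fell (median 0.17). They were Irf1, an interferon-response factor (0.88 ± 0.189; limma, adjusted p = 0.0363), and Socs1, the feedback inhibitor of JAK kinases that PIM kinases also phosphorylate (0.60 ± 0.132; adjusted p = 0.0392). Neither call was firm: Irf1 lost it in 9 of 15 leave-outs and was 0.48 with the mean of its probe sets, and Socs1 lost it in 10 of 15. None of the 15 passed in the other simple comparisons. There the smallest p belonged to the repressor gene Bcl6 for BCR loss with CHIR99021 (-0.46 ± 0.140; adjusted p = 0.480), to Socs3 for CHIR99021 in BCR-positive cells (-0.12 ± 0.0616; adjusted p = 0.548) and to Junb for CHIR99021 in BCR-negative cells (-0.88 ± 0.225; adjusted p = 0.0620).

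Among the genes of proteins that PIM kinases phosphorylate, transcripts of 25 were measured, which says nothing of their phosphorylation. With BCR loss in untreated cultures 4 rose and 1 fell (median 0.10). Beside Socs1 they included Cdkn1b, which encodes the cell cycle inhibitor p27 (0.49 ± 0.111; limma, adjusted p = 0.0429), and the fall was that of Skp2, the ubiquitin ligase component that targets p27 for destruction (-0.32 ± 0.0701; adjusted p = 0.0390). With CHIR99021 in BCR-negative cells the directions were the opposite: Cdkn1b fell (-0.49 ± 0.111; adjusted p = 0.0449), the transcription factor gene Runx1 fell (-0.59 ± 0.112; adjusted p = 0.0258) and Skp2 rose (0.40 ± 0.0701; adjusted p = 0.0199). Both comparisons use the untreated BCR-negative arrays, which ties their signs. Most of these calls were lost on leaving out a lymphoma or an array: for BCR loss Cdkn1b in 10 and Skp2 in 11 of 15 cases, and for CHIR99021 Cdkn1b in 13, Runx1 in 7 and Skp2 in 6. None passed for BCR loss with CHIR99021 (the chemokine receptor gene Cxcr4 at 0.43 ± 0.116; adjusted p = 0.457) or for CHIR99021 in BCR-positive cells (Runx3 at 0.37 ± 0.0909; adjusted p = 0.168).

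Of 19 measured genes of the parallel PI3K, AKT and S6 kinase pathway, 3 rose and 1 fell with BCR loss in untreated cultures (median 0.10). Pik3ip1, an inhibitor of PI3K, rose by 1.30 ± 0.128 (limma, adjusted p = 0.00334) and the AKT-related kinase gene Sgk1 by 0.86 ± 0.159 (adjusted p = 0.0273), while its relative Sgk3 fell (-0.80 ± 0.0860; adjusted p = 0.00493). In BCR-negative cells CHIR99021 lowered Pik3ip1 (-1.17 ± 0.128; adjusted p = 0.00404) and the PI3K catalytic subunit gene Pik3cg (-1.22 ± 0.136; adjusted p = 0.00439) and raised Sgk3 (0.55 ± 0.0860; adjusted p = 0.0140). This comparison and BCR loss in untreated cultures both use the untreated BCR-negative arrays, which ties their signs. The rise of Sgk1 lost its call in 6 of 15 leave-outs and the rise of Sgk3 with CHIR99021 in 5. The other calls named for both comparisons were lost in 1 or 2. In BCR-positive cells Pik3cg was the 1 member called (-1.04 ± 0.136; adjusted p = 0.0404), a call lost in 11 of 15 leave-outs, and 2 of the 19 had a positive difference (median -0.09). Over all genes 51.2% of differences were positive in that comparison (median 0.0027). For BCR loss with CHIR99021 none passed (Pik3ip1 0.60 ± 0.128; adjusted p = 0.401).

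Genes that retroviral insertion activates together with MYC in mouse lymphoma mostly did not pass. Of the 12, Notch1 (0.59 ± 0.101; limma, adjusted p = 0.0221) and Runx1 (0.48 ± 0.112; adjusted p = 0.0471) rose with BCR loss in untreated cultures, and Runx1 was the 1 member called with CHIR99021 in BCR-negative cells. The rise of Runx1 lost its call in 15 of 15 leave-outs (adjusted p from 0.0519 to 0.305, with values down to 0.27), and that of Notch1 in 6. The list medians there were 0.08 and -0.07, and the untreated BCR-negative arrays used in both comparisons tie their signs. Notch1 for BCR loss with CHIR99021 (0.23 ± 0.101; adjusted p = 0.579) and Fli1 for CHIR99021 in BCR-positive cells (-0.22 ± 0.0844; adjusted p = 0.401) had the smallest p and did not pass.

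**Figure D3:**
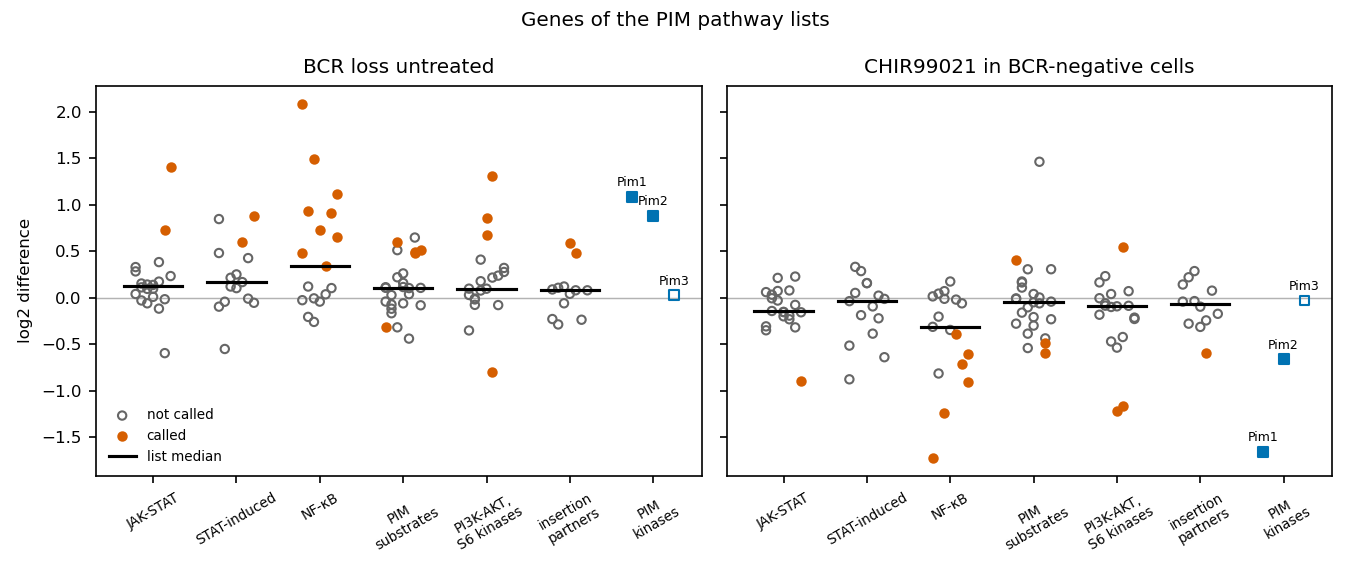
Log2 differences (vertical axis) of the genes of the 6 pathway lists and of the PIM kinases (horizontal axis) for BCR loss in untreated cultures (left) and for CHIR99021 in BCR-negative cells (right); filled symbols are called by limma and black lines are list medians. Called NF-κB genes lie above 0 on the left and below 0 on the right, as Pim1 and Pim2 do. Both panels use the same untreated BCR-negative arrays with opposite sign, which ties the signs of each gene.

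The genes whose pattern was most like that of each kinase were sought among 13173 genes above the 30th percentile, by Pearson r over the 12 arrays after each lymphoma's mean was subtracted. The 12 arrays share 3 lymphomas and 4 groups, and the values are the extremes of many, so they describe and do not test. For Pim1 the 5 highest were Mbtd1 (r = 0.987), the circadian repressor gene Nr1d2 (0.986), Fbxo32 (0.985), a ubiquitin ligase gene known as a FOXO target, Calcoco1 (0.985) and Tk2 (0.981), a mitochondrial thymidine kinase gene. Fbxo32 stood 0.07 above its lymphoma mean in untreated BCR-positive cells, 0.75 above in untreated BCR-negative cells, and at -0.59 and -0.23 in treated BCR-positive and BCR-negative cells. Pim1 in the same order was at 0.14, 1.22, -0.92 and -0.44. The 3 lowest were Eef1e1 (-0.986), Xpnpep3 (-0.985) and the chaperone gene Hsph1 (-0.979).

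For Pim2 the gene with the highest r was Nfkb2 (0.977), the NF-κB subunit gene of the non-canonical pathway. It stood at 7.07, 6.58 and 5.85 in untreated BCR-positive cells of 2564, 2646 and 2676 and at 7.65, 7.74 and 6.82 in untreated BCR-negative cells. With CHIR99021 it was 7.41, 6.77 and 5.81 in BCR-positive and 7.40, 6.80 and 5.86 in BCR-negative cells, so that it too was raised in the untreated BCR-negative cells of each lymphoma and level between the treated populations. Its difference was 0.91 ± 0.139 for BCR loss in untreated cultures and 0.03 ± 0.139 with CHIR99021, beside 0.88 and 0.01 for Pim2. Next came Sidt2 (0.968), Taf4b (0.955), the checkpoint gene Vsir (0.952) and Nop53 (0.943), and the lowest were Dnajc9 (-0.968), the replication gene Gins3 (-0.966) and Fam111a (-0.964).

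Pim3 varied little once the lymphoma mean was taken out (SD 0.0722, against 0.855 for Pim1 and 0.374 for Pim2). Its 5 highest were Ncdn (0.960), Psd4 (0.922), Jmjd4 (0.897), Nol6 (0.893) and Lamb3 (0.878), and its lowest Apobr (-0.897), Amn1 (-0.886) and the probe set with the symbol Mir200a (-0.885). Between the kinases r was 0.734 for Pim1 and Pim2, -0.256 for Pim1 and Pim3 and 0.0691 for Pim2 and Pim3.

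**Figure D4:**
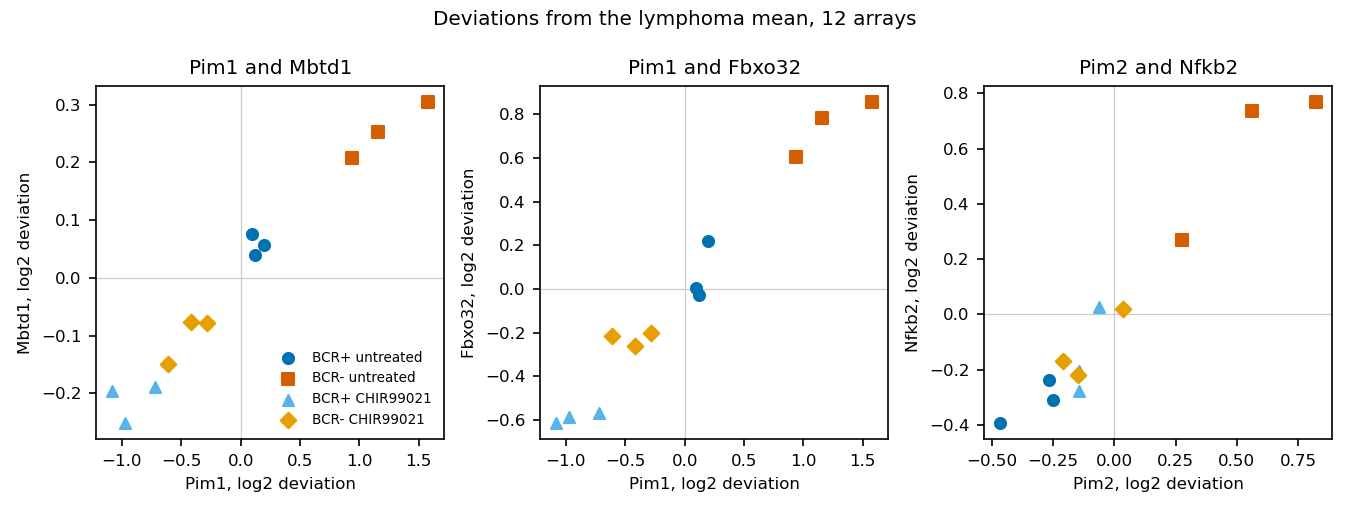
Log2 deviation from the lymphoma mean on the 12 arrays, with the kinase on the horizontal and the other gene on the vertical axis, for Pim1 against Mbtd1 and Fbxo32 and for Pim2 against Nfkb2, 1 symbol shape per group. Pim1 spreads the 4 groups along the whole line, whereas for Pim2 the 3 arrays of untreated BCR-negative cells stand apart from the other groups.

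B-cell markers were bright: 6 of 7 measured lay above the 30th percentile, and Ms4a1, which encodes CD20, lay below it on average (3.03 to 3.92 over the arrays). Their mean log2 level was 9.44 to 9.60 on untreated BCR-positive arrays, 9.50 to 9.82 on untreated BCR-negative ones, 8.90 to 9.46 on treated BCR-positive ones and 8.97 to 9.54 on treated BCR-negative ones. With BCR loss in untreated cultures 5 of the 7 had a positive difference (median 0.14), and Blnk, a BCR signalling adaptor gene, was called higher (0.63 ± 0.0962; limma, adjusted p = 0.0170). Over all genes 49.0% of differences were positive in that comparison (median -0.0023). With CHIR99021 all 7 had a negative difference in both populations (medians -0.29 and -0.33), with Cd79b called lower in BCR-negative cells (-0.33 ± 0.0604; limma, adjusted p = 0.0240). Over all genes 51.2% of the CHIR99021 differences were positive in BCR-positive cells and 54.2% in BCR-negative cells (medians 0.0027 and 0.010). The part of the B-cell marker shifts in the PIM differences was not tested. Fewer cells of a kind and less RNA per cell cannot be told apart in sorted bulk samples.

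Markers of other cells were of mixed level. The 7 T-cell markers had a mean of 4.15 to 4.27 over all arrays and none was called in any comparison. Of 9 myeloid markers, Lyz2 was called higher with CHIR99021 in BCR-negative cells (0.46 ± 0.100; limma, adjusted p = 0.0388) at levels of 3.52 to 4.28, and Itgam and Csf1r spanned 4.68 to 8.03 and 4.52 to 8.53 without a call. Of 6 plasma cell markers, Prdm1, the regulator of plasma cell fate, rose with BCR loss in untreated cultures (1.62 ± 0.293; adjusted p = 0.0248). Irf4 (9.20 to 10.55), Xbp1 (8.59 to 9.56) and Sdc1 (7.96 to 8.98) were bright on every array and not called, while Jchain lay at 3.56 to 3.83. Epor, 1 of 3 erythroid markers, was called lower with CHIR99021 in BCR-negative cells, and none of 6 stromal markers was called. The part of these cells or programmes in the PIM values was not tested.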

How the data were processed

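Expression was measured on 12 arrays, 3 per group. The deposited values are log2 expression per probe set that the authors made by RMA (software: Affymetrix Power Tools), as per the labels and the processing notes of the submitters; RMA corrects the background, makes the arrays' distributions alike and summarises probes, which can hide shifts shared by all genes. Their versions and build are not given in the sources used. Of 35556 probe sets, 21218 had 1 gene symbol, 1881 had several and 12457 had no entry and stay unnamed; 21185 matched the RefSeq table of GRCm38.p6 on Entrez identifier, with no symbol changed. The probe set with the highest mean stood for each of 18820 genes.

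A linear model with group and lymphoma (6 residual degrees of freedom) was fitted to all genes with limma 3.58.1 in R 4.3.3, followed by eBayes and Benjamini-Hochberg adjustment, and was tested on simulated data. The pairing comes from the labels, where a number is a lymphoma and both populations shared a culture; r between same-lymphoma deviations from group means was 0.813 to 0.907 (18 pairs). The members, gene lists, motifs and the rule for named genes were chosen with earlier results of these data known. The rule named the PIM genes, in each simple comparison up to 3 called members of each list (or the 1 with the smallest p), and the 5 highest and 3 lowest r per PIM gene; marker genes are named where called or where they show a level. Some listed genes were not analysed here. The alternatives tried were other blocks, a fit restricted to the compared arrays, leaving out dim genes, mean probe sets, array medians subtracted, cyclic loess, a trended robust prior, and each lymphoma or array left out. The number of arrays limits the precision.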

Additional observations from a re-analysis of the deposited data

Results flagged for a closer look

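Pim2 moved in opposite directions with CHIR99021 in the 2 populations of all 3 lymphomas: by 0.21 ± 0.130 in BCR-positive cells (0.12 without the untreated BCR-positive array of 2646) and by -0.66 ± 0.130 in BCR-negative cells. The difference between them is the interaction (-0.87 ± 0.183), which did not pass over all genes (limma, adjusted p = 0.928). Groups of 3 arrays are too small for the outlier screen, so none was run.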

How the results depend on the processing

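Without the lymphoma as a block the calls ended: for BCR loss in untreated cultures Pim1 (1.09; limma, adjusted p = 0.779) and Pim2 (0.88; adjusted p = 0.597), and for CHIR99021 in BCR-negative cells Pim1 (-1.66; adjusted p = 0.587) and Pim2 (-0.66; adjusted p = 0.883). Those values are the same as with the block, since the design is balanced. With lymphoma as a random block Pim1 (1.09; adjusted p = 0.107) and Pim2 (0.88; adjusted p = 0.0729) for BCR loss and Pim2 (-0.66; adjusted p = 0.145) for CHIR99021 in BCR-negative cells lost the call, and with only the arrays compared so did all 4 (1.09, 0.88, -1.66 and -0.66; adjusted p = 0.0678, 0.0943, 0.0511 and 0.125). The finer block by culture, run for BCR loss with and without CHIR99021 and for the interaction, changed no call on a PIM gene there. For CHIR99021 in BCR-positive cells Pim1 (-1.06) was called in the 3 settings given above.

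Signs turned only for values near 0. After subtraction of array medians Pim3 was -0.0345 for BCR loss in untreated cultures and 0.0290 for CHIR99021 in BCR-negative cells, and Pim2 -0.0378 for BCR loss with CHIR99021; after cyclic loess Pim3 was 0.0043 for treated BCR-negative against untreated BCR-positive cells. With 1 lymphoma or array left out, BCR loss in untreated cultures ranged from 0.85 to 1.28 for Pim1, 0.68 to 1.07 for Pim2 and -6.7e-05 to 0.0801 for Pim3, and with CHIR99021 from -0.0868 to 0.0783 for Pim2 and -0.17 to 0.0057 for Pim3. CHIR99021 ranged in BCR-positive cells from -1.20 to -0.96 for Pim1 and 0.12 to 0.26 for Pim2, and in BCR-negative cells from -1.85 to -1.39 for Pim1, -0.87 to -0.48 for Pim2 and -0.0787 to 0.0269 for Pim3. Without lymphoma 2646 the Pim1 call there ended (-1.39; adjusted p = 0.0871). The interaction ranged from -0.79 to -0.36 for Pim1 and -1.10 to -0.63 for Pim2. The last comparison ranged from -0.0517 to 0.0621 for Pim3.

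The counts of called genes depended on the settings, as the PIM calls above did. Genes called for BCR loss in untreated cultures numbered 791 and ranged from 0 to 1301 over the alternatives, and for CHIR99021 in BCR-negative cells 692, from 0 to 1089. The split of 359 higher and 432 lower became 288 and 1013 after subtraction of array medians and 389 and 261 after cyclic loess, and 360 and 332 became 836 and 253, and 237 and 354. In the other comparisons 3, 14, 0 and 3 calls ranged to at most 4, 109, 2 and 9. Of 871 values of named list genes under the alternatives 212 lost a call, 3 gained one and none changed sign; the cause was not tested.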
